A study of Mus musculus with 8 samples.

Results

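The CpGs described here lie at the autosomal loci of 5 GATA transcription factors, Gata2, Gata3, Gata4, Gata5 and Gata6, and of 3 of their protein partners, Lmo2, Zfpm1 and Zfpm2. A locus runs from 5 kb before to 5 kb after the gene in the RefSeq annotation of mm10. A CpG was kept when at least 3 mice of each group had 10 or more reads over it, with both strands added. This gave 1759 CpGs at the 8 loci of 1278034 kept autosomal CpGs, with 356 at Zfpm1, 307 at Gata2, 297 at Gata4, 289 at Gata3, 250 at Gata6, 99 at Zfpm2, 93 at Gata5 and 68 at Lmo2.

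The assay, enhanced reduced representation bisulfite sequencing, reads restriction fragments rich in CpGs and gives the percentage of reads with a methylated C at each. The cells were uncultured hematopoietic stem cells of C57BL/6 mouse bone marrow, sorted as Lin-, c-Kit+, Sca-1+, Flk2-, CD48- and CD150+. The 4 knockout mice (mice 25, 28, 45 and 46) were Atg12fl/fl with Mx1-cre, whose promoter responds to interferon and is not restricted to stem cells. The 4 control mice (mice 1, 34, 36 and 37) are given as floxed without Cre in the design text and as WT in their genotype label. Both groups received poly(I:C), the inducer of Mx1-cre, at 4 weeks of age, and cells were taken 2 to 3 months later. Atg12 encodes a ubiquitin-like protein needed to build autophagosomes. No label or file gives the share of cells in which Atg12 was deleted. The comparison asks whether DNA methylation in these cells differs when Atg12 is lost.

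GATA factors bind DNA through zinc fingers that recognise a GATA core. In blood, Gata2 is needed for the making and upkeep of stem cells, and Gata3 directs T cell development. Lmo2 is an adaptor that joins GATA factors to Tal1 and Ldb1, and Zfpm1 (FOG1) is the cofactor through which GATA factors recruit repressor complexes. Gata4, Gata5 and Gata6 act mainly in heart, gut and other tissues derived from endoderm and mesoderm, with Zfpm2 (FOG2) as the cofactor of Gata4 in the heart. CpG-rich promoters of developmental regulators are commonly free of methylation even in tissues that do not express them.

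Promoter sequences of 300 bases, 5 in number, from 250 before to 50 after a start site, were matched to 4 of the genes. All 5 are shown, so that the measured CpGs can be placed in them. They are credited to RefSeq (GRCm38.p6, equal to mm10), and each runs 5′ to 3′ on the strand of its gene. Capital letters mark the CpGs kept in the deposited data. Lmo2, Gata4, Gata6 and Zfpm2 were not matched.
Gata2 upstream start, chr6:88193641-88193940, plus strand: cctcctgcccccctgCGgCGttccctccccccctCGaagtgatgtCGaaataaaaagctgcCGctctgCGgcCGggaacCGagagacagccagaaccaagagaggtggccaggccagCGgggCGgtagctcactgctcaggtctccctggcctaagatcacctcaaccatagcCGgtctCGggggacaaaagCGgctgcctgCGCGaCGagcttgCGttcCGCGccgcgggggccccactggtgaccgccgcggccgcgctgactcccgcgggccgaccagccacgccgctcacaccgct
Gata2 downstream start, chr6:88198414-88198713, plus strand: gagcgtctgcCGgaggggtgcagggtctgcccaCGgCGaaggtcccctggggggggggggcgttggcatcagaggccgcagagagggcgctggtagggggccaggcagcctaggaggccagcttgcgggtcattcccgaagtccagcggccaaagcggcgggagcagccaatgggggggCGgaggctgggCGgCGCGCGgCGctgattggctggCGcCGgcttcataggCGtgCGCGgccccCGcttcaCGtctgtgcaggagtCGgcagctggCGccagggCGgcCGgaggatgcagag
Gata3, chr2:9878551-9878850, minus strand: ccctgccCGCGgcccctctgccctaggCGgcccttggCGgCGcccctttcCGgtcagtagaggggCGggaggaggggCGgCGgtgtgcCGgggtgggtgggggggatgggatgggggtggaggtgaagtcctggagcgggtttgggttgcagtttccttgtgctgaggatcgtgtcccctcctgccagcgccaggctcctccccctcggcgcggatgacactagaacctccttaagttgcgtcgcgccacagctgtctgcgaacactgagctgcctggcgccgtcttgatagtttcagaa
Gata5, chr2:180334630-180334929, minus strand: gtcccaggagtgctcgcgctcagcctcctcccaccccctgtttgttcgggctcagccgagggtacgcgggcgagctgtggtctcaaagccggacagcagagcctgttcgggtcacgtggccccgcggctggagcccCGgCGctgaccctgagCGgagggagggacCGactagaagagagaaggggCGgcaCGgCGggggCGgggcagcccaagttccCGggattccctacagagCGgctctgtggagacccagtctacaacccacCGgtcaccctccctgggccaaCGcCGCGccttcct
Zfpm1, chr8:122281891-122282190, plus strand: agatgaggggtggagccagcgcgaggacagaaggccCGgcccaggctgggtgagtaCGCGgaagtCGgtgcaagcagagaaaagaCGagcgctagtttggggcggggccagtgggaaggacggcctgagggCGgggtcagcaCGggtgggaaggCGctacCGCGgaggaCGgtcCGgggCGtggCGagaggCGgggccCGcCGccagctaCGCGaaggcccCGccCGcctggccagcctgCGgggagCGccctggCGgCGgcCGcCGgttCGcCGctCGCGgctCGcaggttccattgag

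All the measured promoter CpGs fell on a CG of these sequences. The Zfpm1 promoter holds 37 CGs, of which 32 were measured, at a mean of 0.0741% ± 0.0312 in knockout mice and 0.106% ± 0.0239 in control mice (SD, n = 4 each). The upstream Gata2 promoter, with 19 of 32 CGs measured, was at 0.141% ± 0.133 in knockout mice and 0.289% ± 0.530 in control mice (SD, n = 4 each). Its downstream promoter, with 20 of 29 CGs measured, was at 0.183% ± 0.217 in knockout mice and 0.476% ± 0.808 in control mice (SD, n = 4 each). At Gata3, 10 of 22 CGs were measured, at 0.109% ± 0.128 in knockout mice and 0.349% ± 0.261 in control mice (SD, n = 4 each). The Gata5 promoter, with 14 of 26 CGs measured, had 2.08% ± 0.884 in knockout mice and 1.89% ± 0.537 in control mice (SD, n = 4 each). Thus the measured promoter CpGs of Gata2, Gata3, Zfpm1 and Gata5 were alike in being almost free of methylation. No measured CpG in the 5 sequences averaged above 4.65% over the mice. At Gata3 the measured CpGs all lie in the first part of the sequence, so those nearest its start site were not read. The median of 32851 RefSeq promoters of the same length is 7 CGs, fewer than in any of the 5. GATA motifs were searched as GATA preceded by A or T and followed by A or G, on both strands and with overlaps allowed. A single match, TGATAG from base 287 of the Gata3 sequence, was found, and 29.8% of all promoters hold at least 1.

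Of the 1759 CpGs, 1330 averaged under 10% methylation over the mice, 262 from 10 to 90% and 167 over 90%. Lmo2 had the highest share under 10% (91.2%), and Zfpm1 the lowest (52.5%). Over all kept autosomal CpGs the shares were 58.1% under 10%, 14.4% from 10 to 90% and 27.5% over 90%. Zfpm1 stands apart among the 8 loci by its methylated CpGs, with 112 over 90%, or 31.5% of its CpGs, and Gata6 had 0.

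**Figure D1:**
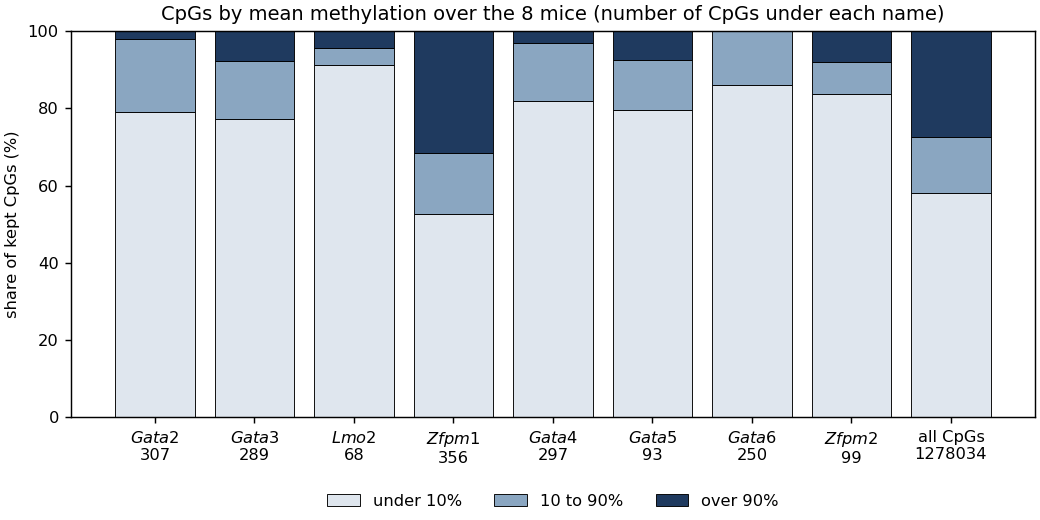
Share of kept CpGs (%) by mean methylation over the 8 mice, for each locus and for all 1278034 kept autosomal CpGs. The light part, under 10%, fills 77.2% or more of each bar except that of Zfpm1 (52.5%) and that of all CpGs (58.1%).

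A level of a locus is the mean over the CpGs covered in all 8 mice, 1550 CpGs in total, with each CpG weighted equally. In the order of mean level over all mice, Zfpm1 stood at 36.8%, Zfpm2 at 15.5%, Gata5 at 14.2%, Gata3 at 14.0%, Gata2 at 10.1%, Gata4 at 7.59%, Lmo2 at 5.64% and Gata6 at 5.41%. The ranges over mice of Gata5 (13.1 to 14.6%) and Gata3 (12.9 to 15.6%) overlapped, as did those of Lmo2 (4.84 to 6.35%) and Gata6 (4.76 to 6.09%). The range of Zfpm2 (15.1 to 16.2%) also overlapped that of Gata3, so the order among these neighbours is within their spread. The median of 16740 protein-coding loci was 19.9%, and every member but Zfpm1 lay under it.

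Gata2, the stem cell factor, alternated between methylated and unmethylated stretches over 1 kb windows, whose levels are summed over reads. The read counts given for windows are sums over their CpGs, so a read that covers several CpGs counts at each. The 37 CpGs of the first window, from 88189001 to 88190000 on chromosome 6, averaged 0.530% ± 0.566 in knockout mice and 0.194% ± 0.0661 in control mice (SD, n = 4 each). In the next window the level was 48.9% ± 4.56 in knockout mice and 44.0% ± 5.70 in control mice (SD, n = 4 each), and its 17 CpGs ranged from 7.93 to 92.4% over the mice. From 88193001 to 88201000, which holds both promoters, each window with at least 3 CpGs in all mice was under 10%, while between the promoters 4 single CpGs, from 88194850 to 88195372, averaged 16.2 to 34.1%. The longest unmethylated stretch, defined as neighbouring kept CpGs under 10% with gaps of at most 1 kb, ran from 88196355 to 88200057 with 120 CpGs. It is 3703 bp long, at the 99.7th percentile of 17149 loci, whose median is 619 bp. The levels that define it are means over the mice. In single mice the longest stretch at Gata2 ran from 1528 to 3825 bp. Over the 8 loci, the SD of this length between mice ran from 9.19 bp at Zfpm1 to 891 bp at Gata2. Towards the far end of the gene, 7 CpGs in the window from 88203001 to 88204000 were at 0.292% ± 0.585 in knockout mice and 0.0312% ± 0.0624 in control mice (SD, n = 4 each). The adjoining window, with 14 CpGs, was at 69.5% ± 10.4 in knockout mice and 67.9% ± 1.95 in control mice (SD, n = 4 each).

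Gata3, on chromosome 2 from 9857078 to 9887953, had its longest unmethylated stretch around the promoter, from 9876605 to 9880475. It spans 3871 bp and 89 CpGs, and its length lies at the 99.8th percentile of loci. Within 7 kb of the gene's lower end, 3 windows were between 96.4 and 97.1% in knockout mice and between 94.97 and 97.4% in control mice. Between these and the promoter, the window from 9868001 to 9869000 varied most from mouse to mouse, at 50.4% ± 31.4 in knockout mice and 44.6% ± 9.80 in control mice (SD, n = 4 each). It holds 3 CpGs with 258 to 1134 reads in each mouse. Part of the locus is shared with the lncRNAs 4930412O13Rik and 9230102O04Rik, so its CpGs do not belong to Gata3 alone. The same holds at Gata2, where the lncRNA Gm38708 covers the upstream promoter, and at Zfpm1, where the lncRNA Gm39269 covers the promoter. Other annotated genes overlap parts of the loci of Gata4 (Neil2), Gata5 (Gm52543), Gata6 (Gata6os) and Zfpm2 (Gm18285, Gm6045 and Gm33353).

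Lmo2, the adaptor, was measured in few places. On chromosome 2, 62 of its 68 CpGs formed a single unmethylated stretch from 103969022 to 103971248, at 0.165% in knockout mice and 0.179% in control mice. Its length of 2227 bp lies at the 97.2nd percentile. The lncRNA Gm38515 overlaps this stretch. Outside the stretch, 3 CpGs averaged from 10 to 90% over the mice and 3 over 90%. A window with 3 CpGs near the gene's lower end was at 29.5% ± 15.8 in knockout mice and 38.7% ± 15.8 in control mice (SD, n = 4 each). Its single CpGs ranged from 13.4 to 99.0% over the mice.

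Zfpm1, the cofactor of the blood GATA factors, joined an unmethylated start to a densely methylated far end. The 105 CpGs of the window from 122282001 to 122283000 on chromosome 8 averaged 0.133% ± 0.0877 in knockout mice and 0.125% ± 0.0156 in control mice (SD, n = 4 each). They lie in an unmethylated stretch of 3622 bp and 153 CpGs, at the 99.7th percentile. At the other end of the gene, the 69 CpGs of the window from 122336001 to 122337000 averaged 92.9% ± 2.37 in knockout mice and 93.5% ± 1.85 in control mice (SD, n = 4 each). Over the 95 CpGs from 122335001 to the end of the locus the level was 92.8% ± 1.65 in knockout mice and 94.2% ± 1.79 in control mice (SD, n = 4 each), and over the other 214 CpGs of the locus it was 11.3% ± 0.587 and 11.9% ± 0.851. This division was picked after their values were seen. Windows with as many CpGs are rarely methylated in these cells: of 2672 autosomal windows with at least 60 CpGs, 3 averaged over 90% and 2647 under 10%. The Zfpm1 window is 1 of the 3. Between the ends, levels ran from 0.0343% ± 0.0685 in knockout mice and 0.119% ± 0.171 in control mice, from 122315001 to 122316000, up to 92.02% ± 4.33 in knockout mice and 95.7% ± 1.33 in control mice, from 122307001 to 122308000 (SD, n = 4 each).

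Gata4, on chromosome 14 from 63198914 to 63271712, was under 10% in 11 of its 17 windows. The 51 CpGs of the window from 63245001 to 63246000 averaged 0.852% ± 0.370 in knockout mice and 0.614% ± 0.368 in control mice (SD, n = 4 each). Its longest unmethylated stretch, 2364 bp with 27 CpGs, lay at the upper end, where the level was 3.46% in knockout mice and 2.82% in control mice. Gata5, on chromosome 2 from 180325088 to 180335503, had 58 CpGs in an unmethylated stretch of 674 bp, close to the median of all loci (54.0th percentile). On its upper side 5 CpGs from 180335001 to 180336000 averaged 55.9% ± 3.41 in knockout mice and 60.9% ± 5.74 in control mice (SD, n = 4 each). The lncRNA Gata5os overlaps both.

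Gata6, on chromosome 18 from 11052510 to 11085636, had the lowest mean level. Its 111 CpGs from 11054001 to 11055000 averaged 1.79% ± 0.254 in knockout mice and 1.59% ± 0.194 in control mice (SD, n = 4 each). Its unmethylated stretch had 134 CpGs over 2168 bp, at the 97.0th percentile. Further into the gene, 7 CpGs from 11059001 to 11060000 were at 23.1% ± 9.06 in knockout mice and 32.02% ± 8.18 in control mice (SD, n = 4 each). Zfpm2, on chromosome 15, is the longest of the 8 genes at 449551 bp, yet 82 of its 99 CpGs sat in the stretch of 1809 bp at its lower end. They averaged 0.656% in knockout mice and 0.422% in control mice. The 4 CpGs from 40870001 to 40871000, within the gene, were at 93.6% ± 7.71 in knockout mice and 87.1% ± 5.06 in control mice (SD, n = 4 each).

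**Figure D2:**
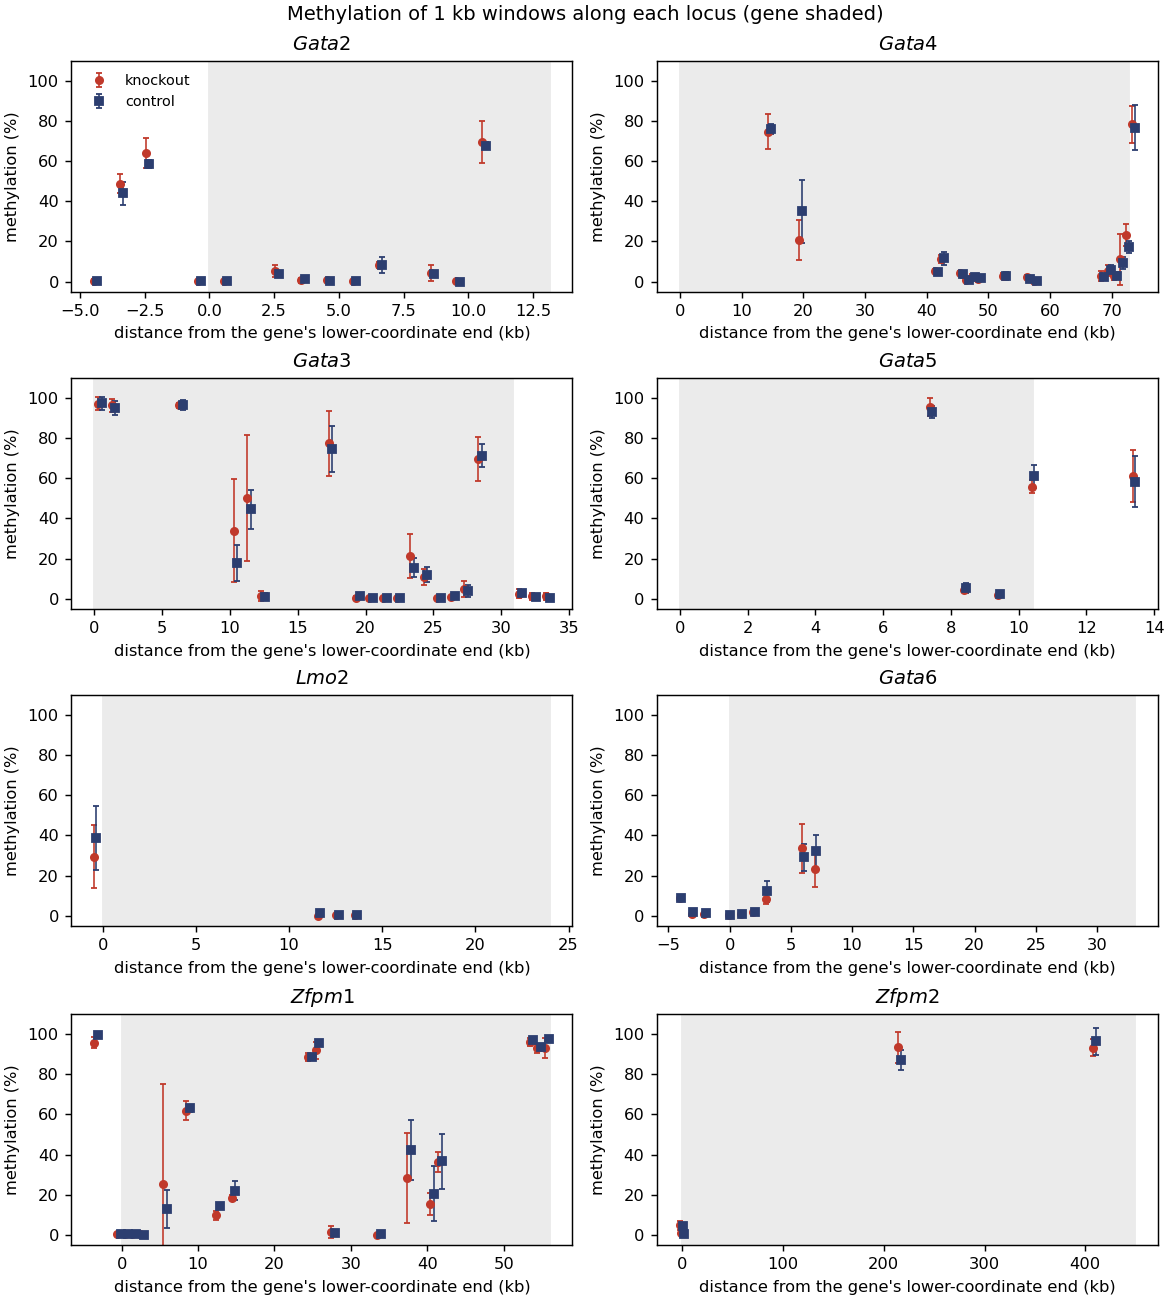
Methylation (%) of 1 kb windows with at least 3 CpGs in all mice against distance from the gene's lower-coordinate end (kb), as mean and SD of 4 knockout mice (circles) and 4 control mice (squares), with the gene shaded. Each locus has windows near 0%, and Zfpm1 and Gata3 each have 3 windows above 90% in both groups at the end away from the promoter shown above.

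The blood genes Gata2, Gata3, Lmo2 and Zfpm1 were next set against Gata4, Gata5 and Gata6, as the mean of locus levels in each mouse. The blood genes averaged 16.6% ± 0.713 and the other genes 9.04% ± 0.279 in knockout mice (SD, n = 4). In control mice the means were 16.7% ± 0.849 for the blood genes and 9.10% ± 0.167 for the other genes (SD, n = 4). The difference was 7.57 percentage points ± 0.556 in knockout mice and 7.58 points ± 0.754 in control mice, and lay between 6.75 and 8.58 points in each of the 8 mice. It rests on Zfpm1: without it, the blood genes averaged 10.02% ± 0.672 in knockout mice and 9.83% ± 0.767 in control mice, 0.856 points above the other genes over all mice. With 4 genes against 3 no test over genes was made, and the mice share the same genes, so the agreement between mice does not bear on other genes.

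Dense and sparse CpGs gave opposite orders of the means, carried largely by Zfpm1 for dense CpGs and by Gata5 for sparse CpGs. Dense CpGs, with 20 or more CpGs within 500 bp, averaged 13.01% at the blood genes and 2.76% at Gata4, Gata5 and Gata6 in knockout mice, against 12.9% and 2.85% in control mice. By gene over all mice, the dense CpGs were at 38.4% in Zfpm1, 8.005% in Gata3, 5.27% in Gata2 and 0.170% in Lmo2. In the other genes they were at 3.61% in Gata6, 2.49% in Gata5, 2.33% in Gata4 and 0.479% in Zfpm2, beside 3.22% over all dense autosomal CpGs. Sparse CpGs averaged 25.4% at the blood genes and 36.02% at Gata4, Gata5 and Gata6 in knockout mice, against 25.8% and 36.3% in control mice. Among these, Gata5 was at 75.3% over only 14 sparse CpGs, Gata4 at 19.3% and Gata6 at 13.8%, while the 4 blood genes ranged from 18.6% in Lmo2 to 33.2% in Zfpm1. Over all sparse autosomal CpGs the mean was 73.3%, so the sparse CpGs of 6 of the 8 loci, all but those of Gata5 and Zfpm2 (69.6%), were at 33.2% or less.

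**Figure D3:**
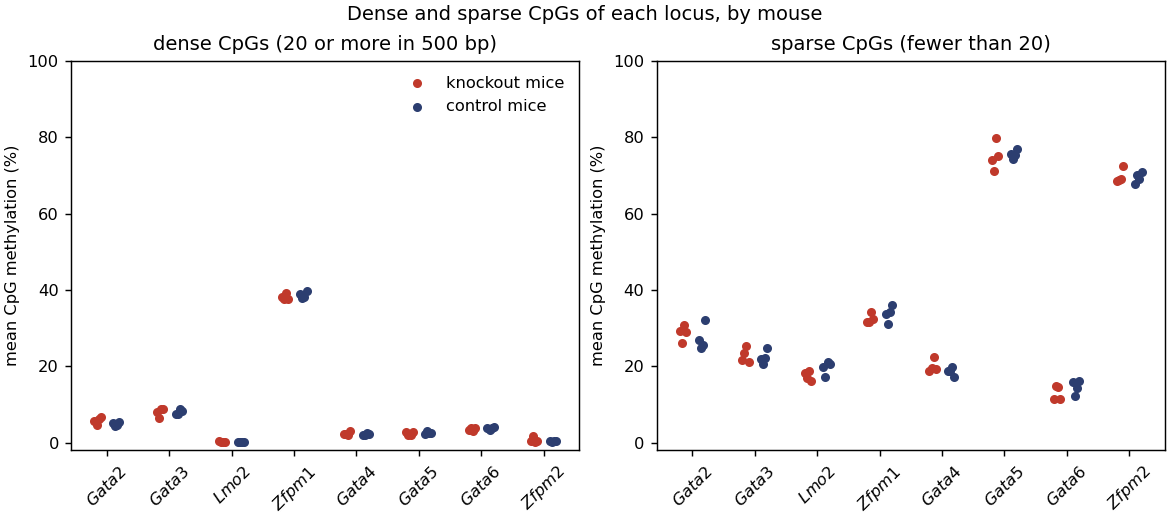
Mean methylation (%) of dense and sparse CpGs of each locus, with 1 point for each knockout and control mouse. Dense CpGs are near 0 to 9% at every locus but Zfpm1 (38.4%), and sparse CpGs are highest at Gata5 (75.3%) and Zfpm2 (69.6%) in both groups.

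Against this pattern, the genotype comparison gave small differences with each CpG weighted equally. Levels by mouse at Gata2 were 10.6, 9.05, 11.3 and 11.4% in knockouts 25, 28, 45 and 46, against 9.69, 8.69, 9.10 and 11.04% in controls 1, 34, 36 and 37. Here 2 knockout mice lay above every control, and the groups overlapped. The difference was 0.973 points (95% interval -1.99 to 2.76; two-sided exact permutation p = 0.286). At Gata3 the knockout mice had 13.6, 13.4, 15.6 and 13.9%, and the control mice 13.4, 12.9, 14.3 and 15.002%. They differed by 0.229 points (95% interval -1.59 to 2.69; exact permutation p = 0.743).

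Lmo2 had 5.69, 5.13, 5.62 and 4.84% in the knockout mice and 5.98, 5.20, 6.35 and 6.31% in the control mice. In this case 2 knockout mice lay below every control, and the difference was -0.641 points (95% interval -1.51 to 0.488; exact permutation p = 0.114). Without control 34 it was -0.893 points with an exact permutation p of 0.0286, the smallest that 4 against 3 can give, unadjusted for the 8 loci. Zfpm1 had 36.1, 35.7, 37.7 and 35.9985% in the knockout mice and 37.4, 35.9, 37.04 and 38.6% in the control mice, a difference of -0.833 points (95% interval -2.84 to 1.86; exact permutation p = 0.343).

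At the loci of the factors of other tissues the spread was as small. Gata4 had 7.38, 7.69, 8.32 and 8.17% in the knockout mice and 7.12, 7.25, 7.92 and 6.85% in the control mice, 2 knockouts lying above every control. The difference was 0.606 points (95% interval -0.540 to 1.47; exact permutation p = 0.114). Gata5 had 14.1, 13.1, 14.6 and 14.5% in the knockout mice and 14.05, 14.5, 14.3 and 14.5% in the control mice, with knockout 28 lowest. It differed by -0.273 points (95% interval -1.44 to 0.510; exact permutation p = 0.629). Gata6 had 4.76, 5.69, 4.98 and 5.17% in the knockout mice and 5.93, 4.95, 5.69 and 6.09% in the control mice, a difference of -0.517 points (95% interval -1.33 to 0.736; exact permutation p = 0.171). Zfpm2 had 15.3, 16.2, 15.1 and 16.03% in the knockout mice and 15.1, 15.3, 15.2 and 15.6% in the control mice, with 2 knockouts above every control and a difference of 0.349 points (95% interval -0.539 to 1.13; exact permutation p = 0.314). With each CpG weighted equally, the groups overlapped at all 8 loci, and 4 differences were positive and 4 negative. No interval reached 3 points on either side, but the intervals hold for this weighting only. By reads summed over the locus, the difference was -4.75 points at Zfpm1 and -2.74 at Gata3, outside the intervals given for them. The smallest p these 70 arrangements allow is 0.0286.

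**Figure D4:**
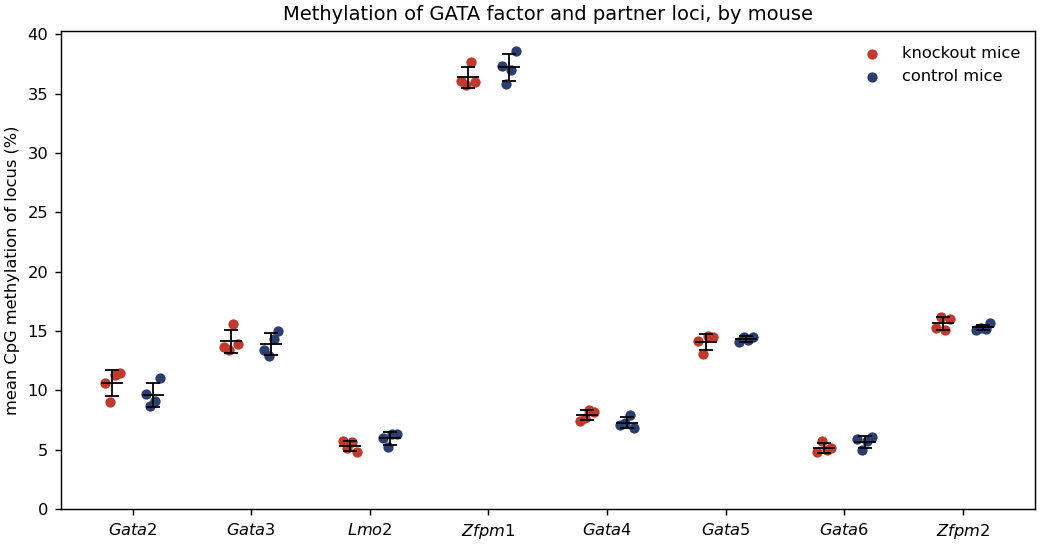
Mean CpG methylation (%) of each locus in each knockout and control mouse, with group mean and SD (n = 4 each). The groups overlap at every locus, and Zfpm1 lies at 35.7% or more in all mice.

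Tests over all features gave no call at the members. A moderated quasi-binomial fit (limma's variance moderation, Benjamini-Hochberg adjustment) took reads summed over each locus. Only loci whose read-summed level averaged 5 to 95% entered, which left Lmo2, Gata4 and Gata6 untested. Of the 8 loci, 5 entered and 0 were called, each of the 5 at an adjusted p of 0.9998 in this fit. The share called among all 11040 loci was 0%, with 2.52% at an unadjusted p under 0.05 against 0 of the 5 member loci. Among 1 kb windows, 0 of 37 tested member windows were called, beside 0% of 39903. A single member window, at Zfpm1, reached an unadjusted p under 0.05, beside 6.50% of all windows. Of the 37, 21 were lower and 16 higher in knockout mice, and in 1 the groups did not overlap, beside 3.48% of all windows. Among CpGs, 0 of 410 tested members were called, beside 0.00735% of 313039. At an unadjusted p under 0.05 there were 19 members, 11 lower and 8 higher in knockout mice, beside 6.52% of all CpGs. The members' shares rest on few features and are not read as a result about the members. Their order beside all features depended on the mice used. Windows at an unadjusted p under 0.05 in this fit were 0 of 38 members beside 1833 of 40336 without control 36. They were 6 of 39 members beside 3590 of 42996 without control 34. With limma on log2 ratios of reads, 0 members were called, beside 0 of all features. In that fit 17 of 410 member CpGs had an unadjusted p under 0.05, beside 15727 of all 313039. For windows these counts were 0 of 37 members beside 1922 of all 39903.

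The window that did not overlap lies within Zfpm1, from 122294001 to 122295000, with 4 CpGs and 1469 to 2344 reads in each mouse. It had 10.9, 11.5, 6.74 and 9.50% in knockouts 25, 28, 45 and 46, against 12.6, 14.5, 14.4 and 16.1% in controls 1, 34, 36 and 37. All the knockout values lay under all the control values, by means of 9.66% ± 2.12 and 14.4% ± 1.45 (SD, n = 4 each). The unadjusted p was 0.0263 and the adjusted p, with limma's moderation, 0.727. The most negative of the 37 differences was at Gata4 from 63218001 to 63219000, with 20.7% ± 10.1 in knockout mice and 34.98% ± 15.9 in control mice (SD, n = 4 each), over 3 CpGs with 74 to 434 reads and an adjusted p of 0.772 (limma's moderation). The most positive was at Gata3 from 9867001 to 9868000, with 33.8% ± 25.7 in knockout mice and 17.9% ± 9.05 in control mice (SD, n = 4 each), over 3 CpGs with 56 to 194 reads and an adjusted p of 0.863 (limma's moderation).

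**Figure D5:**
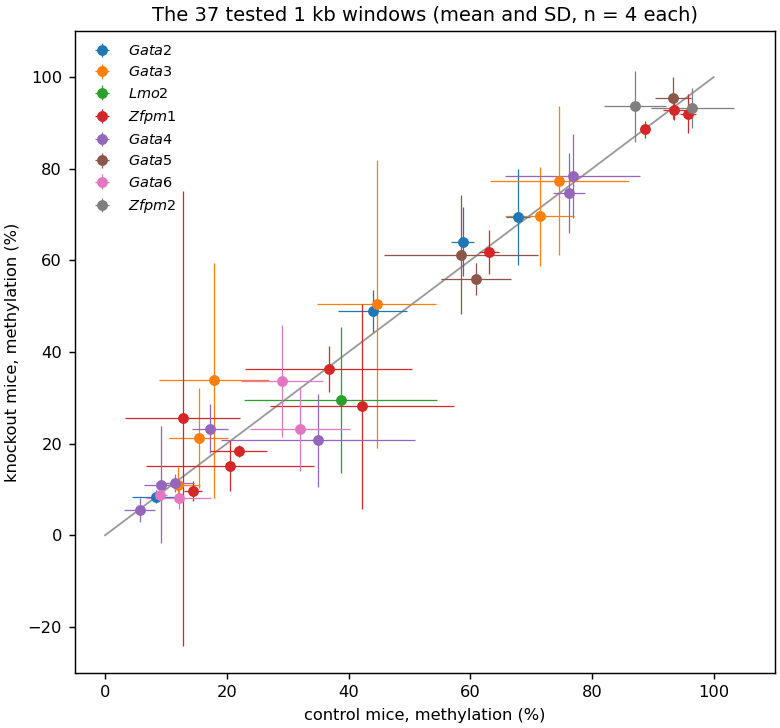
Mean methylation (%) of the 37 tested 1 kb windows in knockout mice against control mice, with SD bars for each group (n = 4 each) and the line of equal levels. The bars are widest at intermediate levels, and the red point at 14.4% in control and 9.66% in knockout mice is the Zfpm1 window whose groups did not overlap.

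The CpG of smallest p at each locus is given next. The share of all tested CpGs whose groups do not overlap was not counted. A lack of overlap at CpGs picked in this way is therefore not read as a result about the members. At Gata2 position 88190243, levels were 100, 97.7, 100 and 100% in the knockout mice and 92.4, 63.5, 90.05 and 95.5% in the control mice, without overlap and with an adjusted p of 0.739 (limma's moderation). At Gata3 position 9871943, levels were 7.10, 0, 0 and 8.10% in the knockout mice and 21.9, 18.2, 14.05 and 13.1% in the control mice, also without overlap and with an adjusted p of 0.739. The zeros are 0 of 380 and 0 of 396 reads, which allow up to 0.789% and 0.758%. At Gata4 position 63240735, levels were 7.79, 9.25, 23.9 and 18.5% in the knockout mice and 6.77, 0.291, 6.79 and 6.11% in the control mice, again without overlap and with an adjusted p of 0.718. Each value there rests on 648 to 1392 reads, so counting error is small beside the spread between mice.

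At the other loci the groups overlapped. Lmo2 position 103957952 averaged 6.80% ± 11.3 in knockout mice and 39.6% ± 22.98 in control mice, and Zfpm1 position 122336385 averaged 84.6% ± 13.3 in knockout mice and 99.87% ± 0.251 in control mice (SD, n = 4 each). Gata5 position 180335535 averaged 46.4% ± 8.86 in knockout mice and 66.9% ± 11.45 in control mice, and Gata6 position 11055444 averaged 30.9% ± 11.02 in knockout mice and 56.6% ± 13.9 in control mice (SD, n = 4 each). Zfpm2 position 41064613 averaged 87.9% ± 15.8 in knockout mice and 97.4% ± 4.63 in control mice (SD, n = 4 each). The adjusted p of these 5 CpGs, with limma's moderation, lay between 0.725 and 0.785. All were picked for having the smallest p at their locus, so they are given as descriptions.

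Other genes of the pathway were read from lists of partners. Of 15 genes that act with GATA factors in blood, 11 loci were tested and 0 called, with 9 lower and 2 higher in knockout mice by reads summed over the locus. With each CpG weighted equally, 4 were lower and 7 higher. Their smallest unadjusted p-values were 0.00644 at Lmo4, a LIM-only relative of Lmo2, and 0.0485 at Erg, an ETS factor of stem cells, with read-summed differences of -2.46 and -5.52 points and an adjusted p of 0.9998 each (limma's moderation). Weighted equally, these differences were -0.268 points at Lmo4 and -0.918 at Erg. Tal1, the DNA-binding partner of Lmo2, differed by 0.763 points by reads and -0.0176 weighted equally. Runx1, a regulator of blood stem cells, differed by -3.59 points by reads and 0.157 weighted equally, so both turned direction with the weighting. Of 15 NuRD subunits and coactivators, 8 were tested and 0 called, 6 lower and 2 higher by reads, against 2 lower and 6 higher weighted equally. Of 10 heart partners of Gata4, 5 were tested and 0 called, 4 lower and 1 higher by reads and 3 lower and 2 higher weighted equally. The 2 of smallest p were Mef2c and Tbx5, a heart T-box factor. Mef2c turned direction, at -8.91 points by reads and 0.604 weighted equally. Tbx5 was at -1.04 points by reads and -0.552 weighted equally. Of 5 further GATA-type and LMO genes, 4 were tested and 0 called, all 4 lower by reads and all 4 higher weighted equally. The medians of the 4 lists were -2.97, -1.27, -1.04 and -0.873 points by reads, beside -1.29 over all 11040 loci, of which 8014 were lower and 3026 higher in knockout mice. Weighted equally, they were 0.104, 0.122, -0.0898 and 1.05 points, beside -0.0445 over all loci, of which 5814 were lower and 5226 higher. No list therefore has a direction that holds under both weightings, except that of the heart partners, whose counts lie close to even when weighted equally.

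The libraries were not alike. They listed 2038266 to 3366162 cytosines, with a median of 212 to 293 reads over CpGs covered in all mice and of 151 to 550 over the members. The ratio of reads over always methylated to always unmethylated CpGs was 0.435 to 0.639 in knockout mice and 0.368 to 0.828 in control mice, lowest in control 34. Control 34 also had the lowest level at 2 of the 8 loci, knockout 28 at 2, and knockout 45 the highest at 3. The part of coverage in the results was not tested. The Y chromosome held 0.0790 to 0.0901% of the listed cytosines in knockout mice and 0.0115 to 0.0183% in control mice, so genotype and Y content cannot be told apart. No RNA was measured, so neither the cell type nor the loss of Atg12 could be checked by expression. Each library came from an individual mouse.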

How the data were processed

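The authors deposited 1 table per mouse, listing cytosines of CpGs on either strand. Per the file headers, each row holds a coverage, which is a count of reads, and the percentages of those reads with C and with T; the authors listed no cytosine under 10 reads. Bismark, CASAVA 1.8.2 and the mm10 build are named in the submitters' processing notes; how reads were trimmed, filtered or deduplicated is not stated in these sources.

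Here, methylated reads were recovered as coverage times percentage, rounded, and strands were added. RefSeq gene bounds carried no exons, so exon, intron and UTR are not reported. CpGs (3 mice of each group), 1 kb windows and loci (at least 3 CpGs, all 8 mice) with a mean level of 5 to 95%, a filter blind to genotype, entered a quasi-binomial model over all autosomal features, in R 4.3.3 with limma 3.58.1 (squeezeVar, dispersion at least 1, Benjamini-Hochberg, threshold 0.05). The script was tested on simulated data. Locus levels had exact two-sided permutation tests over 70 arrangements. Intervals for single values are exact binomial (95%), and the limit for a count of 0 is 3 reads. Reads carry no molecular identifiers, so intervals cover counting error only.

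The members, lists and tests were chosen with earlier results of these data known. Named by rule were the window and the CpG of smallest p and the window of largest SD at each locus. The windows of smallest p given for Gata2, Lmo2, Gata6 and Zfpm2 had an adjusted p of 0.850, 0.898, 0.848 and 0.888 (limma's moderation). The Gata5 window of both rules, from 180338001 to 180339000, was at 61.3% ± 13.0 in knockout mice and 58.4% ± 12.6 in control mice. The Gata6 window of largest SD, from 11058001 to 11059000, was at 33.7% ± 12.2 and 29.1% ± 6.74 (SD, n = 4 each). Alternatives were coverage, flanks, weighting, level filters, limma on log2 ratios, libraries left out, and, added after seeing the data, the contrast without Zfpm1.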

Additional observations from a re-analysis of the deposited data

Results flagged for a closer look

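In 8 of 56 groups of 4 mice looked at, 1 mouse lay far from the other 3. Chance gives about 1 in 20 for groups not picked by their values, a rate that cannot be applied here, since windows and CpGs were picked for a small p or a large SD and in 2 of the 8 groups the other 3 mice tie at 100%. Binomial intervals given here are 95% and exact. At the Zfpm1 locus, knockout 45 stood at 37.7% and the nearest knockout at 36.1%. In the Zfpm1 window from 122287001 to 122288000, with 4 CpGs, knockout 45 had 100% methylation and the next knockout 2.04%. These rest on 142 and 49 reads summed over the CpGs, which lie from 122287074 to 122287108. The same read can count at several of them, so no interval is given. The controls lay between 3.61 and 24.0% there, and this window had the widest spread of those at Zfpm1.

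At Gata2 position 88190243, knockout 28 was at 97.7% while the other knockouts were at 100%, and control 34 was at 63.5% (interval 56.5 to 70.2%) with the nearest control at 90.05%. At Lmo2 position 103957952, knockout 25 was at 23.5% (interval 17.3 to 30.7%) and the nearest knockout at 3.72%. At Zfpm1 position 122336385, control 1 was at 99.5% while the other controls were at 100%, which is 1 read of 199. At Gata4 position 63240735, control 34 was at 0.291%, from 2 of 687 reads, and the nearest control at 6.11%. At Zfpm2 position 41064613, control 1 was at 90.5% (interval 84.8 to 94.6%) and the nearest control at 99.2%.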

How the results depend on the processing

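No member CpG, window or locus was called under any alternative. Over all autosomal features, 0 loci were called throughout. With 1 mouse left out, loci at an unadjusted p under 0.05 in the quasi-binomial fit ranged widely. They were 79 of 10954 without control 36 and 3136 of 11496 without control 34, beside 278 of 11040 with all mice. Without control 34, 2 of 6 member loci were among them, and the smallest member adjusted p was 0.0989 in that fit. The number of CpGs called, 23, was 40 with a minimum of 20 reads, 1 without the top 0.1% of coverage, 14 without knockout 25 and control 34 together, 0 with limma on log2 ratios and 0 with a wider filter on the level. With 1 mouse left out it ranged from 1 (without knockout 25) to 191 (without knockout 45), with 39 without control 1 and 47 without control 34. The number of windows called, 0, ranged up to 32 (without control 34), with 7 without knockout 45 and 6 without knockout 25 and control 34. The cause was not tested.

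The difference at Gata3 changed sign to -0.00123 points with a minimum of 20 reads, -0.0279 without knockout 25 and control 34, and -2.74 with CpGs weighted by reads, and ranged from -0.325 (without knockout 45) to 0.520 with 1 mouse left out, with -0.214 without control 34. That at Zfpm2 was -0.105 over all kept CpGs and -0.846 weighted by reads. With 1 mouse left out, the difference ranged from -0.569 to 0.112 at Gata5, its one positive value being that without knockout 28, and at Lmo2 from -0.893 (without control 34, exact permutation p = 0.0286) to -0.480. The Gata5 window of smallest p ranged from -1.86 to 9.03 points, with -0.299 without control 36. The differences at Gata2, Lmo2, Zfpm1, Gata4 and Gata6 kept their direction in all alternatives run, but not their size. Lmo2 was at -1.02 points without knockout 25 and control 34 together. Zfpm1 was at -4.75 and Gata5 at -1.94 weighted by reads, Gata6 at -0.0185 without knockout 28, Gata4 at 0.216 over all kept CpGs, and Gata2 at 0.291 without knockout 45 and 1.62 without control 37.

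The blood genes minus Gata4, Gata5 and Gata6 came to 6.75 points with a minimum of 20 reads, 5.35 weighted by reads, 6.77 with flanks of 2 kb, 12.5 with each CpG weighted equally over genes, 3.00 from Gata2 and Gata3 alone and 0.856 without Zfpm1. Over dense CpGs it was 1.67 without Zfpm1, and over sparse CpGs -14.1 with a minimum of 20 reads and -13.04 without Zfpm1. With a limit of 20%, the longest stretch was 2295 bp at Lmo2, 4272 at Gata4, 978 at Gata5 and 2697 at Gata6, and with gaps of 2 kb it was 6211 bp at Gata6. No paired analysis was possible because the groups share no mouse numbers. Loci with few CpGs in all mice, such as Lmo2, limit what can be seen there.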
